A study of Mus musculus with 90 samples.

Results

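The 38 genes described here build the sarcomere, the contractile unit of striated muscle, apart from its myosin heavy chains. The list was chosen with earlier results of these data known. Its genes were taken by symbol from the 55011 gene symbols of the count table, with no cut on measured values. All 38 were found. They are troponins (Tnnt1, Tnnt2, Tnnt3, Tnni1, Tnni2, Tnni3, Tnnc1, Tnnc2), tropomyosins (Tpm1, Tpm2, Tpm3), sarcomeric actins (Acta1, Actc1), myosin light chains (Myl1, Myl2, Myl3, Myl4, Myl7, Mylpf), myosin-binding proteins (Mybpc1, Mybpc2, Mybpc3, Mybph), and genes of the filament scaffold, Z disc and M band (Ttn, Neb, Actn2, Actn3, Myom1, Myom2, Myom3, Myoz1, Myoz2, Myoz3, Tcap, Ldb3, Des, Myot, Ky). The series holds 90 mouse libraries of polyA RNA in 29 groups: tibialis anterior (TA) muscle after injury, uninjured quadriceps, heart and liver, and mesenchymal stromal cells sorted from muscle (MmSCs). Every mouse with a genotype label carried Pdgfra-Cre, a recombinase driven in PDGFRa-expressing stromal cells and not in fibres, so the controls carry it too. The WT groups had intact Piezo1 (Piezo1 +/+), and the groups labelled mutant had floxed Piezo1 (Piezo1 f/f). TA muscle was taken 1, 3 and 7 days after cardiotoxin (CTX), a snake venom toxin that destroys fibres, was injected into it, in 4 libraries per genotype at day 1 and 3 at days 3 and 7. Quadriceps came from sedentary (SED) uninjured mice, in 3 libraries per genotype. Hearts came from uninjured mice and, in a separate cohort, from mice 3 days after CTX in skeletal muscles, in 3 libraries per genotype and condition, and liver of uninjured mice gave 4 per genotype. MmSCs (PDGFRa+Sca1+CD31-CD45-) came from a first cohort after acute exercise (AEX) or at rest, a second after exercise training (EXT) or at rest, and the third with both genotypes, AEX or SED. They also came from both genotypes 1 day after CTX, and from cells of the WT genotype given vehicle or the PIEZO1 agonist Yoda1 at 25 µM for 2 h. A further set was given vehicle (labelled unstimulated) or Yoda1 at 25 µM for 4 h or 6 h. No genotype is recorded in the genotype field for the first and second cohorts, whose titles say WT, or for the set at 4 h and 6 h. An age, 8 to 10 weeks, is given only for the exercise cohorts.

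In the sarcomere, thin filaments of actin and tropomyosin slide along thick filaments of myosin. Troponin T anchors the troponin complex to tropomyosin, troponin I blocks contraction at rest, and troponin C binds calcium and releases the block. Most of these proteins come as sets of paralogues, with forms typical of fast fibres, slow fibres, heart or embryonic muscle. Regenerating muscle is known to use embryonic and cardiac forms before the adult fast forms return, and TA and quadriceps of mice are mostly fast.

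Library totals ran from 4051973 to 10226407 counts in TA, 6632892 to 7883104 in quadriceps, 27925309 to 37148962 in heart and 1806248 to 10258234 in MmSCs. Libraries of a tissue are compared in CPM, in which a gene's count is set against the library total after TMM scaling. Genes or tissues are compared in TPM, for which each count is also divided by gene length. A gene counted as called when its Benjamini-Hochberg adjusted p from the quasi-likelihood test of edgeR was under 0.05 over all genes tested. Changes are log2 values ± SE. Piezo1, the gene whose loss the labels name, did not separate the genotypes in 1 direction, so those groups are called labelled mutant throughout. Its mean was 12.2 ± 4.37 TPM in the labelled mutant against 10.1 ± 1.80 TPM in WT in TA at day 3, with overlap (SD, n = 3 each). It was lower without overlap in labelled mutant hearts of day 3 (3.38 ± 0.646 against 4.66 ± 0.216 TPM) and in MmSCs after CTX (16.9 ± 0.586 against 20.4 ± 1.94 TPM). In MmSCs of the third cohort at rest its mean was 20.1 ± 4.26 against 14.8 ± 1.87 TPM. A deletion of floxed exons is not visible in gene-level counts. No label says that replicates are separate animals, so p-values measure the spread between these samples. Whole tissue mixes cell types, and fewer fibres and less RNA per fibre cannot be told apart.

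The promoters of 4 genes that return below are shown first, since they hold the short motifs best known from muscle genes. Acta1 is the main actin of adult skeletal muscle (chromosome 8 from 123891769 to 123894751) and Actc1 that of heart (chromosome 2 from 114047282 to 114053548). The other 2, Tnnt2, cardiac troponin T (chromosome 1 from 135836354 to 135852260), and Tnni1, slow troponin I (chromosome 1 from 135779434 to 135810989), are the genes with the largest rise in WT TA between days 1 and 3. Sequences are RefSeq's of GRCm38.p6, the 250 bases before a transcript start, written 5′ to 3′ on the gene's strand. Capitals mark a CArG box, the site of serum response factor, in Acta1 (chr8:123894776-123895025, minus strand) and Actc1 (chr2:114052876-114053125, minus strand). They mark the MCAT site CATTCC, known for TEAD factors, on either strand in Tnnt2 (chr1:135836084-135836333, plus strand), and E boxes CANNTG, the sites of MyoD and related factors, in Tnni1 (chr1:135799171-135799420, plus strand).
Acta1: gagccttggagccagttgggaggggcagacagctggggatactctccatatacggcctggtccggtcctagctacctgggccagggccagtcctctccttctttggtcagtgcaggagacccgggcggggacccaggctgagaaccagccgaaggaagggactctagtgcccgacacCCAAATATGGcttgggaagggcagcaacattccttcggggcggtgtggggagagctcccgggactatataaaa
Actc1: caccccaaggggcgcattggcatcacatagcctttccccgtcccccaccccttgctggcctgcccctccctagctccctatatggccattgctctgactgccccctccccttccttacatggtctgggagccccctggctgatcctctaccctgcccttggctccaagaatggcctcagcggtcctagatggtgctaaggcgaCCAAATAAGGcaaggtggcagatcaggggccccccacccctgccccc
Tnnt2: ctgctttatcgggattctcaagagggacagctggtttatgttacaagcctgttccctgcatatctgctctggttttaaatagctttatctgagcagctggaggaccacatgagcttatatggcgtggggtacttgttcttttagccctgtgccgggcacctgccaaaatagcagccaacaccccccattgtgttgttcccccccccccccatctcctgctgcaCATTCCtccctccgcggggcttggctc
Tnni1: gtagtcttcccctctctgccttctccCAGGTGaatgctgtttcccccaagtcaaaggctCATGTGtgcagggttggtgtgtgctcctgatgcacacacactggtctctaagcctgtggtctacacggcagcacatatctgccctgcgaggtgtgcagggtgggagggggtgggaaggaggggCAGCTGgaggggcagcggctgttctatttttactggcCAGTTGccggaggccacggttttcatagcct
Tnnt2 and Tnni1 each have 1 more start in the table, and that of Tnnt2 has no CATTCC before it. Of the 38 genes, 29 were matched to 34 promoters of that table. A CArG box was found in 20.6% of the 34 and in 1.47% of all 32851 promoters of this length. The shares for the other motifs, each searched on both strands, were 88.2% against 66.2% for an E box, 26.5% against 12.6% for CATTCC, 14.7% against 12.4% for TATAAA and 11.8% against 2.92% for a MEF2 site. The motifs were searched separately and may overlap one another. The genes with a CArG box were Acta1, Actc1, Ldb3, Myl3, Myl7 and Myom1. A match is a string of letters and not evidence of binding.

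Between days 1 and 3 after injury, 7 sarcomere genes rose and 15 fell in WT TA muscle. Tnnt2 rose most (log2 5.49 ± 0.29), followed by Tnni1 (5.26 ± 0.45), the embryonic and atrial light chain Myl4 (4.50 ± 0.34), Tnnc1, the troponin C of slow fibres and heart (4.09 ± 0.46), and Tnnt1, slow troponin T (3.35 ± 0.28). The M-band gene Myom3 (2.08 ± 0.35) and Mybph, a myosin-binding protein (1.39 ± 0.29), also rose. Those that fell were the fast troponins Tnnt3, Tnni2 and Tnnc2, the slow and ventricular light chains Myl2 and Myl3, and Tpm1, Tpm2, Acta1, Mybpc1, Mybpc2, Myl1, Neb, Actn2, Actn3 and Myoz1. Of the 37 genes tested (Myl7 did not pass the filter), 7 rose and 15 fell, beside 14.1% and 12.6% of all 15499 genes tested. The median change of the 37 was -0.62, and that of all genes was 0.0078. In the labelled mutant, 6 rose and 26 fell, beside 22% and 22.6% of all genes, with a median of -2.65. Without WT library 1 or 2 of day 3, 7 or 8 genes fell in WT in place of 15. The same 5 genes (Tnnt1, Tnnt2, Tnni1, Tnnc1, Myl4) rose and the same 15 fell in both genotypes. With library totals in place of TMM factors the median of all genes moved by 0.20 in WT and 0.43 in the labelled mutant at this step.

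Tnnt2, Tnni1, Tnnc1 and Myl4 started from low levels. Tnnt2 measured 4.89, 5.08, 4.33 and 3.96 CPM in the WT libraries of day 1 and 158, 178 and 283 CPM in those of day 3. In the labelled mutant it went from 3.64, 5.03, 5.40 and 6.91 to 77.4, 168 and 146 CPM (4.65 ± 0.29, adjusted p = 4.93e-11). Every library of day 3 was thus above every library of day 1, and the lowest of day 3 was the first of the labelled mutant. Tnni1 measured 11.1, 2.60, 6.82 and 3.96 CPM at day 1 and 143, 191 and 372 CPM at day 3 in WT. The labelled mutant had 5.32, 6.47, 3.75 and 4.44 and 53.2, 154 and 136 CPM. The days did not overlap for Tnni1 either. Tnnc1 went from 6.72, 5.79, 4.85 and 3.28 to 60.4, 68.0 and 137 CPM in WT and from 1.96, 5.18, 3.15 and 4.28 to 22.8, 114 and 58.8 CPM in the labelled mutant (4.18 ± 0.49). Myl4 went from 12.1, 13.2, 9.70 and 8.74 to 159.8, 205 and 379 CPM in WT and from 10.4, 10.9, 9.76 and 12.8 to 49.9, 162 and 128 CPM in the labelled mutant (3.37 ± 0.34). For Tnnc1 and Myl4 too the libraries of both days were fully apart in each genotype.

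Slow troponin T showed the same order at lower levels. Tnnt1 measured 7.94, 6.26, 6.16 and 5.19 CPM at day 1 and 52.4, 59.9 and 83.7 CPM at day 3 in WT, against 1.96, 4.46, 5.55 and 3.45 and 20.03, 42.5 and 46.03 CPM in the labelled mutant. Myom3, the myomesin of slow and intermediate fibres, measured 5.74, 8.15, 9.70 and 16.7 CPM at day 1 and 27.8, 49.3 and 49.4 CPM at day 3 in WT, against 7.28, 5.32, 14.6 and 7.89 and 9.67, 12.04 and 22.4 CPM in the labelled mutant (0.77 ± 0.37, adjusted p = 0.104). Mybph measured 114, 79.3, 76.8 and 60.4 CPM at day 1 and 173, 215 and 264 CPM at day 3 in WT, against 69.2, 74.1, 82.3 and 74.5 and 37.8, 63.8 and 97.2 CPM in the labelled mutant (-0.17 ± 0.30, not called). Myom3 and Mybph were therefore called at this step in WT but not in the labelled mutant. The reads of Mybph overlap those of the antisense gene Adora1, which counts without strand cannot keep apart. The sources used here do not say whether strand was used. The same limit holds for Tnnc2, overlapped by the antisense gene Ube2c, and for Mybpc1, Mybpc2, Myl2, Myl3, Myl4, Ttn, Neb, Myom1 and Des.

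Among the genes that fell were the fast troponins. Tnnt3, fast troponin T (chromosome 7 from 142498836 to 142516009), measured 5951, 5581, 6876 and 6770.0 CPM at day 1 and 2322, 2543 and 3934 CPM at day 3 in WT, and 5367, 7249, 10394 and 8714 and 286, 1199.7 and 1019.7 CPM in the labelled mutant. Tnni2, fast troponin I, measured 2831, 2264, 3007 and 3464 and 985, 1022 and 1639 CPM in WT, and 2809, 3176, 3596 and 3903 and 137, 249.7 and 359 CPM in the labelled mutant. Tnnc2, fast troponin C, measured 401, 397, 498 and 425 and 149.5, 180.2 and 278 CPM in WT, and 346, 516, 585 and 634 and 20.6, 136 and 81.9 CPM in the labelled mutant. All 3 were lower in every library of day 3 than in any of day 1, and the first labelled mutant library of day 3 was the lowest each time. In WT, Tnnt3 fell by 1.10 ± 0.32, Tnni2 by 1.25 ± 0.26 and Tnnc2 by 1.09 ± 0.37 on the log2 scale. The WT call on Tnnt3 was lost without the filter and without WT library 1 or 2 of day 3 (adjusted p = 0.0682 to 0.0844). That on Tnnc2 was lost in these cases and without any 1 WT library of day 1 (0.0503 to 0.148). The falls in the labelled mutant were -3.25, -3.76 and -2.69.

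**Figure D1:**
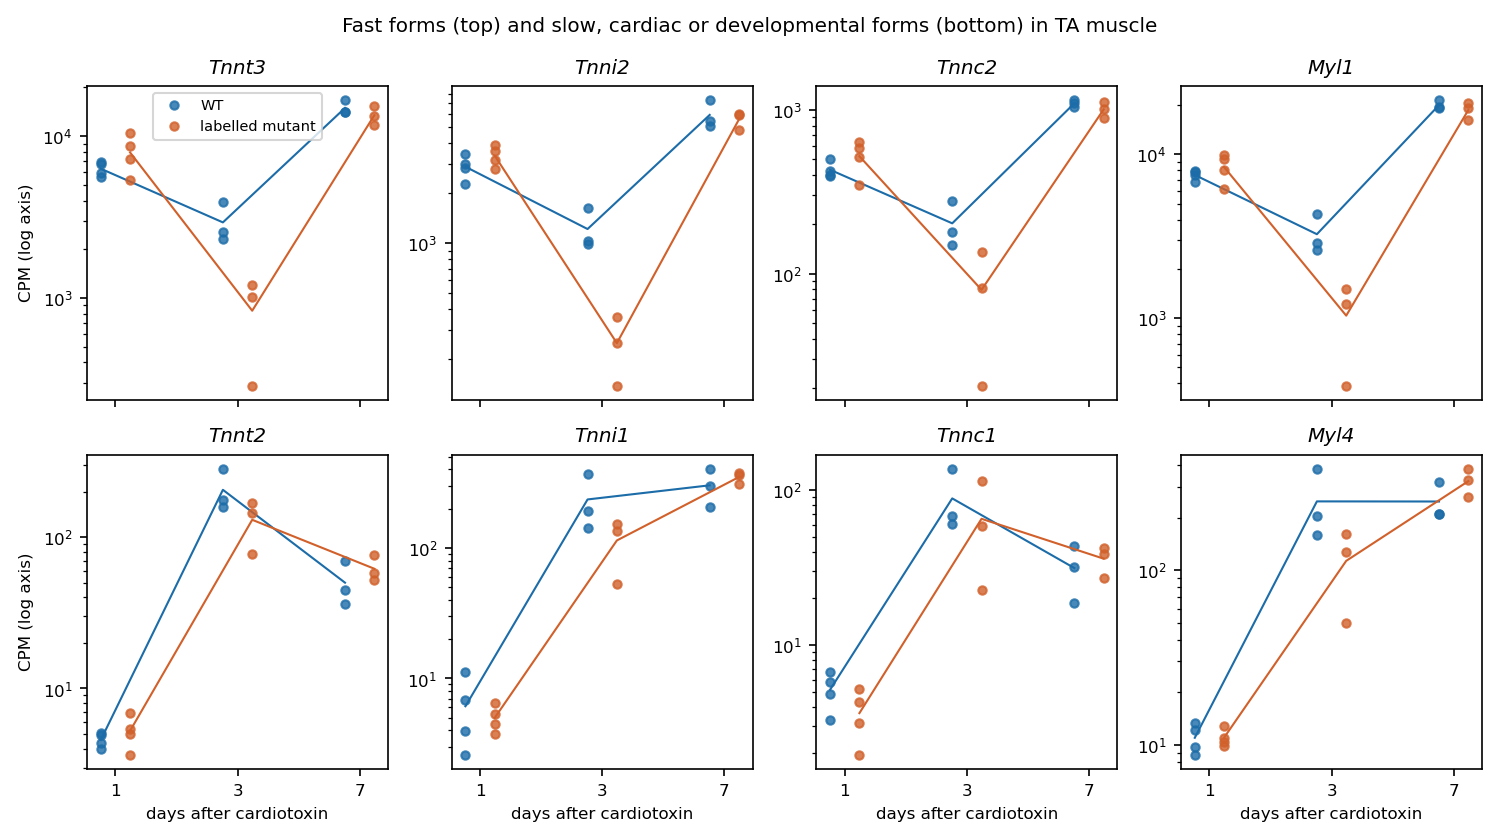
CPM on a log axis against day after cardiotoxin in TA muscle, one panel per gene, with fast forms in the top row and slow, cardiac or developmental forms in the bottom row. Points are libraries, lines join group means, and colours give the genotype; at day 3 the fast forms were at their lowest and the labelled mutant lay under WT, while Tnnt2, Tnni1, Tnnc1 and Myl4 stood far above day 1 in both.

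Fast light chain and skeletal actin fell as well. The alkali light chain Myl1 measured 7747, 6732, 7956 and 7483 CPM at day 1 and 2599.6, 2869.7 and 4292 CPM at day 3 in WT, and 6127, 8015, 9888 and 9410.4 and 385, 1507 and 1217 CPM in the labelled mutant. Acta1 measured 35248, 34278, 41586 and 39676 and 15382, 17254 and 25700.3 CPM in WT, and 29723, 40566, 44621 and 49547 and 2231, 8867 and 7074 CPM in the labelled mutant. Both genes fell in both genotypes, with log2 changes in WT of -1.20 for Myl1 and -0.95 for Acta1. The WT call on Acta1 was lost without the filter, WT library 1 or 2 of day 3 or WT library 3 or 4 of day 1 (adjusted p = 0.0625 to 0.143). Actc1 was not called at this step in either genotype (0.88 ± 0.34 in WT and -0.50 ± 0.34 in the labelled mutant). It measured 620.2, 396, 461 and 362 CPM at day 1 and 471, 714 and 1357 CPM at day 3 in WT, and 237, 276, 585 and 401 and 171, 246 and 378 CPM in the labelled mutant. Acta1 and Actc1 have nearly the same coding sequence, so counting could split their reads.

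Tropomyosin showed a split of its own. Tpm1, the fast and cardiac form, measured 7795, 7291, 9700.1 and 9569 CPM at day 1 and 3134, 3497 and 5662 CPM at day 3 in WT, and 6834, 9523, 15048 and 12972 and 646, 1374 and 1461 CPM in the labelled mutant. Tpm3, the slow form, which many non-muscle cells also express, measured 211, 266, 215 and 207 and 232, 224 and 183 CPM in WT, and 260.0, 235, 259.7 and 189 and 294, 386 and 271 CPM in the labelled mutant. Tpm1 fell in both genotypes, and Tpm3 rose in the labelled mutant (0.42 ± 0.15, adjusted p = 0.0235) but was not called in WT (-0.076 ± 0.15). The summed TPM of 8 macrophage markers rose beside it, from 4421 to 7333 to 22790.5 to 28387 in the labelled mutant and from 5261 to 8834 to 16514 to 22592 in WT. The part of those cells in the Tpm3 level was not tested.

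Paralogues of the Z disc and M band also differed in their changes. Myoz1, the calsarcin of fast fibres, measured 1184, 1195, 1427 and 1309 CPM at day 1 and 415, 469 and 723 CPM at day 3 in WT, and 1080.4, 1481, 1731 and 1833 and 38.3, 167 and 148 CPM in the labelled mutant. Myoz2, that of slow fibres and heart, measured 19.7, 25.4, 26.8 and 44.7 and 15.2, 24.9 and 34.0 CPM in WT, and 16.8, 28.3, 41.7 and 38.5 and 5.53, 15.4 and 11.4 CPM in the labelled mutant. Myoz1 fell in both genotypes (-1.25 and -3.69), whereas Myoz2 fell in the labelled mutant (-1.49 ± 0.38) and was not called in WT (-0.23 ± 0.36). Myom2, a myomesin of fast fibres and heart, went from 719, 705, 920.1 and 932 to 496, 577 and 816 CPM in WT and from 616, 879.5, 945 and 1220.2 to 94.6, 264 and 253 CPM in the labelled mutant. Its change was not called in WT (-0.38 ± 0.27) and was called in the labelled mutant (-2.16 ± 0.29). The giant filament genes Ttn and Neb, which span the sarcomere and the thin filament, changed by -0.62 ± 0.27 (not called) and -0.75 ± 0.27 (called, adjusted p = 0.0452) in WT. Both fell in the labelled mutant (-2.64 and -2.66). The WT call on Neb was lost with library totals, without the filter and with the replicate number as a block (adjusted p = 0.0575 to 0.164). It was also lost without WT library 1 or 2 of day 3 or WT library 3 or 4 of day 1 (0.103 to 0.200).

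Within a library, the ratio of 2 paralogues does not depend on scaling. Log2 ratios of fast to other forms were compared for 12 pairs with exact two-sided permutation tests of the day within each genotype, adjusted over the 12 pairs. Between days 1 and 3, 10 of the 12 ratios changed, all towards the second gene named. The ratio Tnni2:Tnni1 fell by 7.43, Tnnt3:Tnnt2 by 7.30, Tnnc2:Tnnc1 by 6.07, Myl1:Myl4 by 6.03 and Tnnt3:Tnnt1 by 5.56 on the log2 scale, averaged over the genotypes. Each of these had a permutation p of 8.16e-04, the smallest its 1225 arrangements allow, and an adjusted p of 0.00122. Smaller changes were -2.52 in WT and -3.01 in the labelled mutant for Myom2:Myom3, and, in the same order, -1.76 and -2.48 for Acta1:Actc1, -1.05 and -2.36 for Myoz1:Myoz2, -1.03 and -3.70 for Tpm1:Tpm3 and -0.14 and -0.87 for Mybpc2:Mybpc1. For Tpm1:Tpm3 and Mybpc2:Mybpc1 the days overlapped in WT and not in the labelled mutant. The ratios Mylpf:Myl2 and Actn3:Actn2 were not called (permutation test, adjusted p = 0.262 and 0.0677). Mylpf:Myl2 moved in opposite directions, by 2.42 in WT and -0.70 in the labelled mutant, and the test averages over the genotypes. In WT it ran from 10.2 to 12.1 at day 1 and from 13.4 to 14.1 at day 3. Myl2 had only 1 to 11 counts per library at day 3. In the libraries themselves, Tnni2:Tnni1 stood at 7.98, 9.73, 8.77 and 9.75 in WT at day 1 and at 2.78, 2.42 and 2.14 at day 3. The labelled mutant stood at 9.03, 8.92, 9.88 and 9.75 at day 1 and at 1.36, 0.70 and 1.40 at day 3. The days were apart in both genotypes by more than the spread within a day.

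By day 7 most of the sarcomere genes had risen again. Between days 3 and 7, 28 of the 37 genes rose and 3 fell in WT, beside 20.1% and 22.4% of all genes, and the median change was 2.18. In the labelled mutant 32 rose and 2 fell, beside 25.8% and 27% of all genes, with a median of 3.74. With library totals in place of TMM factors, the median of all genes moved by -0.69 in WT and -0.81 in the labelled mutant. All 15 genes that had fallen in WT by day 3 rose again, as did all 26 in the labelled mutant. Both steps use the same libraries of day 3, so genes chosen as low there are favoured to rise afterwards. The share of all fallen genes that rose again was not counted. Tnnt2 and Tpm3 fell in both genotypes (-2.04 and -1.23 in WT, -1.08 and -1.80 in the labelled mutant). Tnnc1 fell in WT (-1.49 ± 0.45), and its fall in the labelled mutant was not called (-0.87 ± 0.44).

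The forms that rose at day 3 therefore parted ways. Tnnt2 measured 36.2, 44.7 and 69.4 CPM in the WT libraries of day 7 and 57.7, 52.0 and 76.2 CPM in those of the labelled mutant. Tnnc1 measured 18.7, 31.8 and 43.8 and 38.9, 27.3 and 42.2 CPM. Both stayed above all libraries of day 1 and, in WT, lay below all of day 3. Tnni1 was at 205, 299 and 404 CPM in WT and 375, 310.5 and 365 CPM in the labelled mutant at day 7. Myl4 was at 209.9, 211 and 322 and 329, 263 and 381 CPM, and Tnnt1 at 61.2, 72.8 and 89.4 and 90.5, 65.0 and 105 CPM. These 3 were not called between days 3 and 7 in WT, where the days overlapped, and rose in the labelled mutant (Tnni1 1.61, Myl4 1.51, Tnnt1 1.25). Under scaling by library totals Tnni1 and Tnnt1 were not called there (adjusted p = 0.0580 and 0.127). Mybph was at 262, 147 and 116 CPM in WT, overlapping day 3, and at 238, 205 and 126 CPM in the labelled mutant, where it rose (1.51).

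The fast forms at day 7 were close between genotypes. Tnnt3 measured 16654, 14026 and 14121 CPM in WT and 13380.3, 15247 and 11763 CPM in the labelled mutant. Tnni2 measured 7291, 5435 and 5118 and 6027, 5942 and 4807 CPM, and Tnnc2 1143, 1042 and 1101 and 1006, 1117 and 892 CPM. Each was above all libraries of day 3, and also above every library of day 1. Myl1 measured 21356, 19435 and 19089 and 19085, 20652 and 16151 CPM, and Acta1 97129, 94489 and 94642 and 105663, 104062 and 80685 CPM. Actc1 rose at this step (log2 2.47 ± 0.38 in WT and 4.29 ± 0.41 in the labelled mutant), to 5354, 3998 and 4746 and 3957, 7013 and 4622 CPM. These 3 genes, too, had no library of day 7 within their range at day 3.

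The alpha-actinins, which crosslink thin filaments at the Z disc, changed their balance at this late step. Actn3, the form confined to fast fibres, measured 3323, 2868, 3682 and 3121, then 1476, 1358 and 2373, then 8157, 5170.0 and 5124 CPM in the WT libraries of days 1, 3 and 7. Actn2, present in all fibres and heart, measured 958, 1161, 1300.3 and 1762, then 360.3, 549 and 670.1, then 4266, 5739 and 6264 CPM. In the labelled mutant Actn3 measured 2626, 3486, 4189.9 and 4443, then 256, 566 and 618, then 4402, 6124 and 4455 CPM, and Actn2 886, 1432, 1441 and 1640.2, then 73.9, 128 and 230.2, then 9545, 6325 and 5002 CPM. Both fell and rose again, and Actn2 rose more between days 3 and 7 (log2 3.37 ± 0.36 against 1.83 ± 0.29 in WT). The ratio Actn3:Actn2 fell by 1.89 (exact permutation test, adjusted p = 0.00857).

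Of the 12 ratios, 7 changed between days 3 and 7, each with the smallest p of 0.005 that 400 arrangements allow and an adjusted p of 0.00857 in the exact permutation test. Apart from Actn3:Actn2 they rose back towards the fast form: Tpm1:Tpm3 by 4.85, Tnnt3:Tnnt2 by 4.85, Tnnc2:Tnnc1 by 4.29, Myl1:Myl4 by 2.65, Tnnt3:Tnnt1 by 2.55 and Tnni2:Tnni1 by 2.37. The ratios Acta1:Actc1, Myom2:Myom3 and Myoz1:Myoz2, which had fallen by day 3, were not called at this step (-0.19, -0.38 and 0.64). Nor were Mybpc2:Mybpc1 (-0.26) and Mylpf:Myl2 (-0.72). The value for Mylpf:Myl2 again averages opposite changes, -2.70 in WT and 1.26 in the labelled mutant.

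**Figure D2:**
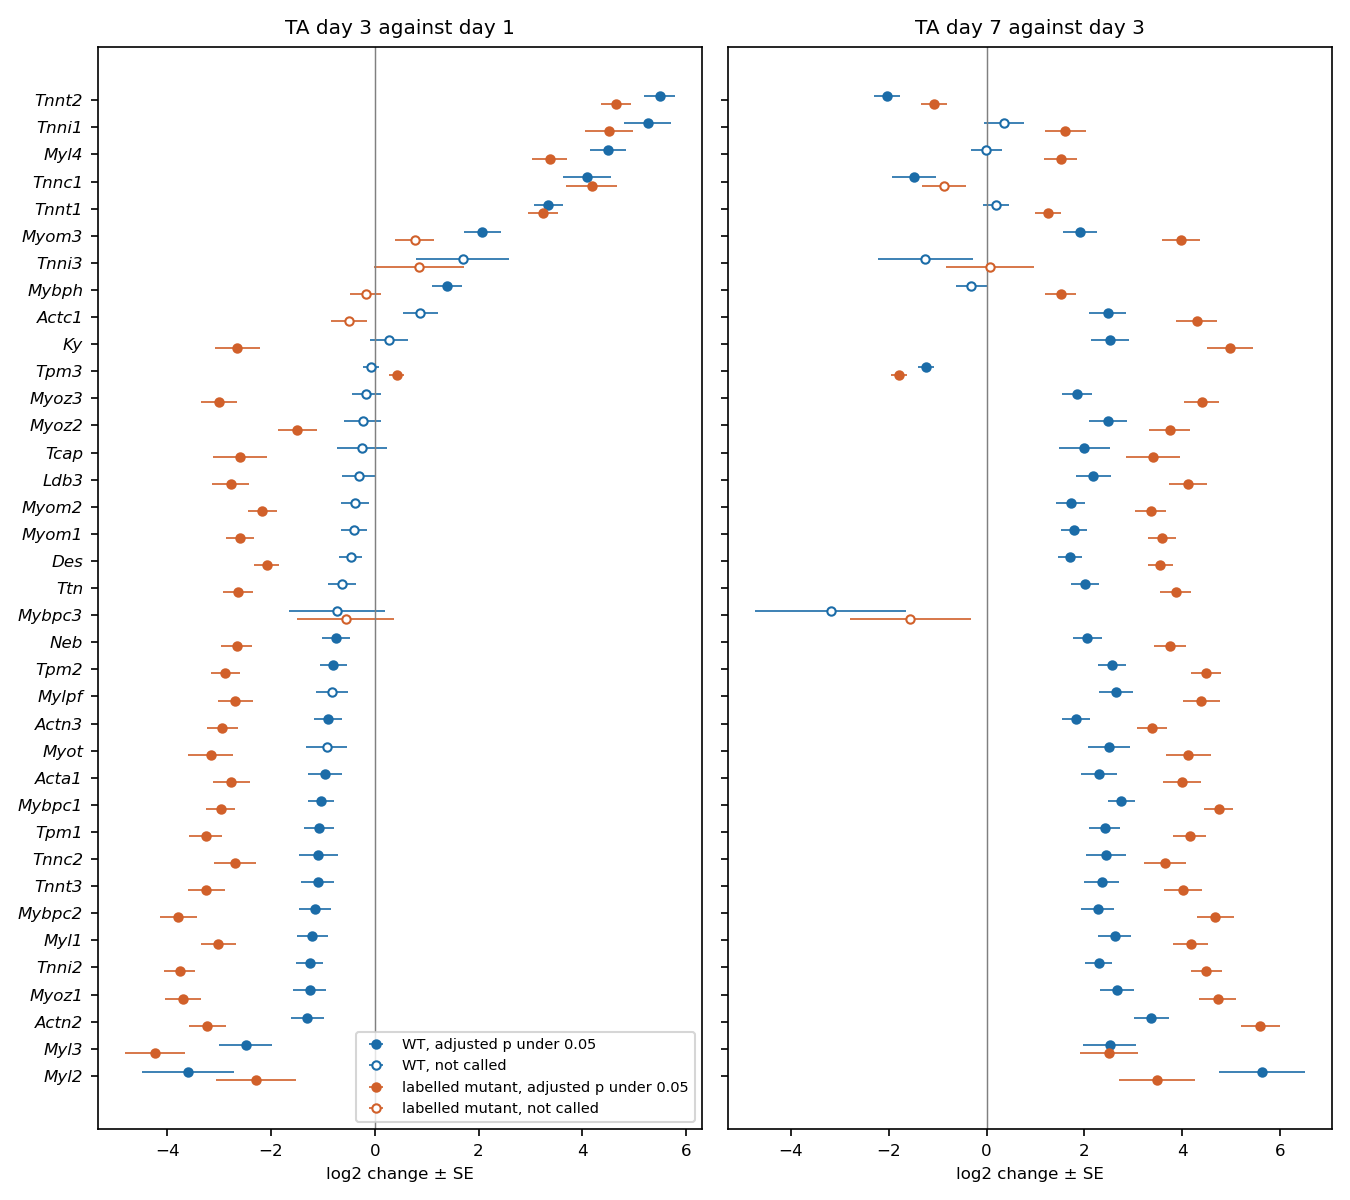
Log2 change ± SE from edgeR's quasi-likelihood fit for the 37 genes tested in TA muscle, day 3 against day 1 on the left and day 7 against day 3 on the right, ordered by the WT change on the left. Filled points are called (adjusted p under 0.05) and open points are not; Tnnt2, Tnni1, Myl4, Tnnc1 and Tnnt1 lie to the right at day 3 in both genotypes, and Tnnt2 and Tpm3 lie to the left at day 7 in both.

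How far a paralogue family was taken over by the rising form can be given as its share of the family's counts per kilobase. Tnnc1 made up 0.928 ± 0.317% (SD, n = 4) of troponin C in WT at day 1, 24.5 ± 2.59% (n = 3) at day 3 and 2.17 ± 0.867% (n = 3) at day 7. In the labelled mutant it made up 0.532 ± 0.162%, 40.3 ± 5.31% and 2.74 ± 0.841%. Troponin C thus gave the slow and cardiac form a larger part than any other troponin did. Tnni1 reached 7.18 ± 1.46% of troponin I at day 3 in WT and 15.9 ± 3.79% in the labelled mutant. Tnnt2 reached 1.39 ± 0.0406% and 3.49 ± 1.31% of troponin T, and Myl4 3.19 ± 0.566% and 4.83 ± 0.546% of the alkali light chains. Mybph reached 15.5 ± 2.25% and 20.5 ± 0.694% of the myosin-binding proteins at day 3, against 3.04 ± 0.991% and 2.57 ± 0.403% at day 1. At day 3 Tnnc2, Tnni2, Tnnt3 and Myl1 each still made up over 50% of their family in every library. For Tnnc2 this depended on the gene lengths used, since in labelled mutant library 1 it had 119 counts and Tnnc1 132. Mybpc2 made up 56.1 ± 3.81% of the myosin-binding proteins in WT and 43.4 ± 3.88% in the labelled mutant. Actn2 took 40.9 ± 10.8% of alpha-actinin at day 7 in WT and 50.9 ± 10.00% in the labelled mutant, against 23.3 ± 5.12% and 21.8 ± 1.54% at day 1. These shares carry no test and depend on the length taken for each gene: with the longest transcript, 27 of the 60 shares compared moved by more than the spread between libraries.

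Some heart forms were hardly present in TA at any day. Tnni3, cardiac troponin I, measured 0.244, 0.473, 0.525 and 0 CPM at day 1, 0.723, 1.25 and 1.17 at day 3 and 1.19, 0.154 and 0 at day 7 in WT, and 1.26, 0.144, 0.600 and 0, then 0.518, 1.23 and 0.971, then 1.57, 0.687 and 0.735 CPM in the labelled mutant. Mybpc3, cardiac myosin-binding protein C, measured 0, 1.06, 1.84 and 1.23, then 0.723, 0.867 and 0.233, then 0, 0 and 0.154 CPM in WT, and 0.140, 2.88, 0.751 and 0.164, then 1.04, 0.309 and 0.777, then 0, 0.343 and 0.294 CPM in the labelled mutant. Neither was called in any TA comparison, and both stayed under 3 CPM. Of the heart forms, Tnnt2, Tnnc1 and Myl4 therefore rose at day 3, and Tnni3, Mybpc3 and Myl7 did not pass a test or the filter. The slow and ventricular light chain Myl2 measured 1.47, 2.13, 2.10 and 5.74, then 0.120, 0.289 and 0.233, then 6.80, 16.1 and 11.7 CPM in WT, and 0.700, 1.87, 2.702 and 6.25, then 0.518, 0.154 and 1.07, then 4.36, 13.0 and 2.21 CPM in the labelled mutant. It fell and rose again (WT -3.60 and 5.62), at under 1 CPM in WT at day 3, and its antisense neighbour Ccdc63 overlaps it. Its partner of fast fibres, Mylpf, measured 6714, 6210.4, 7413 and 6742, then 2763, 3522 and 5184, then 23416, 24296 and 24017 CPM in WT, where its fall at day 3 was not called (-0.82 ± 0.31). Myl3, the slow and ventricular alkali light chain, changed like Myl2 (WT -2.49 and 2.51).

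At day 3 most sarcomere genes were lower in the labelled mutant than in WT. Of the 37 tested, 27 were lower and 1, Tpm3, was higher, beside 6.37% and 2.61% of all genes tested, and the median difference was -1.68 (all genes -0.016). In 28 of the 37 the libraries of the genotypes did not overlap, beside 25% of all genes tested. With library totals in place of TMM factors the median of all genes moved by 0.14. The lowest were Myoz3, a calsarcin (log2 -2.73 ± 0.35), Ky, a Z-disc protein whose loss causes kyphoscoliosis in mice (-2.69 ± 0.45), Mybpc2, fast myosin-binding protein C (-2.50 ± 0.34), Tnni2 (-2.29 ± 0.28) and Myoz1 (-2.18 ± 0.34). At days 1 and 7 no gene of the 37 was called, beside 0.0774% and 0% of all genes, and 1 of the 37 had an unadjusted p under 0.05 at each of those days. DESeq2 called none at either day. In all 37, the genotypes overlapped at days 1 and 7, where 4.13% and 10.1% of all genes did not. Fitted on the 2 groups of day 3 alone, 16 genes were lower and none was higher, and Tpm3 was not called higher without WT library 2 or 3 or labelled mutant library 2.

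Myoz3 measured 19.5, 21.7 and 28.1 CPM in WT at day 3 and 0.691, 3.70 and 5.24 CPM in the labelled mutant. Ky measured 10.96, 23.1 and 45.7 against 3.97, 3.86 and 4.47 CPM, and Mybpc2 940.2, 1003 and 1881 against 108, 218 and 350.3 CPM. The genotypes did not overlap in any of the 3. For Myoz3 and Mybpc2 the first labelled mutant library was far below the others, and it was also the shallowest TA library, with 4051973 counts. Without it, 25 of the 37 were lower. Ldb3, which links alpha-actinin at the Z disc, measured 327, 446 and 686 against 58.9, 129 and 186 CPM. Des, the intermediate filament that ties Z discs together, measured 2503, 2828 and 3301 against 688, 749 and 1437 CPM. Myot, an actin-binding Z-disc protein, measured 164, 267 and 363 against 26.1, 101 and 119 CPM, and Tcap, the titin cap, 729, 781 and 1041 against 46.8, 409 and 312 CPM. Their differences were -1.96, -1.59, -1.68 and -1.73 on the log2 scale, with adjusted p-values of 0.00135, 1.70e-04, 0.0172 and 0.0459.

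The filament scaffold followed. Ttn measured 4876, 5702 and 10319 CPM in WT and 1327, 2353 and 2603 CPM in the labelled mutant at day 3. Neb measured 2167, 2314 and 3998 against 459.9, 1203 and 1090.1 CPM. The 2 giant genes differed by -1.73 ± 0.29 and -1.62 ± 0.30, close to the median of the list. Myom1, the myomesin of all striated muscle, measured 339, 337 and 459.8 against 52.0, 93.3 and 153 CPM, and its reads overlap those of the antisense gene Myl12a. Mybpc1, slow myosin-binding protein C, measured 547, 748 and 1105 against 137, 209 and 324 CPM, Tpm2, the tropomyosin shared by fast and slow fibres, 1135, 1316 and 2174 against 232, 501 and 536 CPM, and Mylpf 2763, 3522 and 5184 against 426, 1598 and 1378 CPM. None of these genes had a labelled mutant library within the WT range.

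Of the 7 genes that rose in WT by day 3, 4 were not called between the genotypes and 3 were lower in the labelled mutant. Tnnc1 (-0.42 ± 0.43), Tnnt2 (-0.65 ± 0.26), Tnnt1 (-0.84 ± 0.27) and Tnni1 (-1.04 ± 0.41) were not called between the genotypes at day 3, while Myl4 (-1.12 ± 0.33, adjusted p = 0.0365), Myom3 (-1.50 ± 0.37) and Mybph (-1.70 ± 0.32) were lower. Also not called were Myoz2, Myl3, Myl2, Tnni3 and Mybpc3. In the ratio tests, which compare the forms directly, none of the 12 ratios differed between the genotypes over the days (exact permutation test within days, lowest adjusted p = 0.207, 28000 arrangements). That test averages over the days. At day 3 alone the ratio Tpm1:Tpm3 was -2.42 and Tnnt3:Tnnt2 -1.33 on the log2 scale, labelled mutant minus WT. With 3 libraries a group an exact test of 1 day cannot go below 0.1, so none was made.

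The change over days itself differed between genotypes for 21 of the 37 genes by a joint test of the interaction of genotype with day, beside 3.89% of all genes tested. The 21 included the fast troponins Tnnt3 and Tnni2 (Tnnc2 was not called), Acta1, Myl1, Mylpf, Ttn and Neb, and none of Tnnt1, Tnnt2, Tnni1, Tnnc1 and Myl4. Without WT library 3 of day 3 the count was 13.

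**Figure D3:**
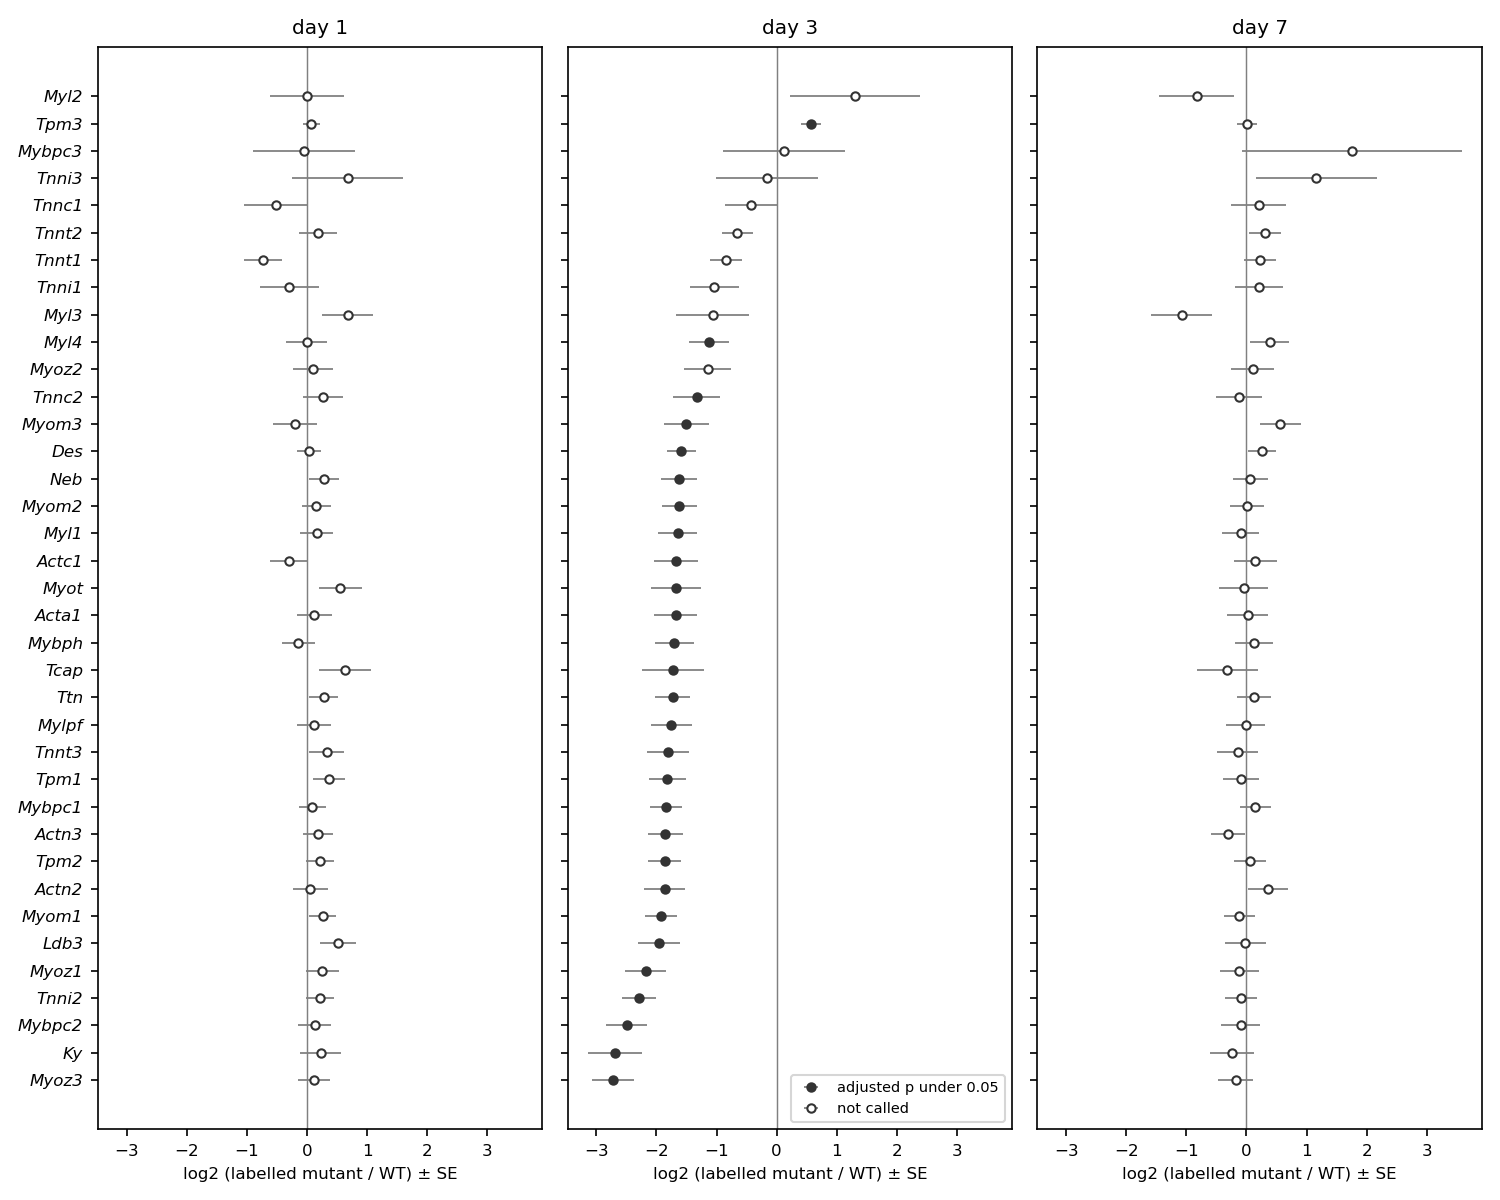
Log2 difference ± SE between the labelled mutant and WT at days 1, 3 and 7 in TA muscle for the 37 genes tested, from edgeR's quasi-likelihood fit, ordered by day 3. Filled points are called; at day 3, 27 filled points lie left of 0 and Tpm3 lies to the right, and at days 1 and 7 no point is filled.

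Other RNAs moved with the day 3 difference. The summed TPM of 10 fibre genes that are not part of the sarcomere (creatine kinase and others) ran from 25686 to 48188 in WT and from 4121 to 12112 in the labelled mutant. The 8 macrophage markers summed to 16514 to 22592 in WT and 22790.5 to 28387 in the labelled mutant, without overlap. The 8 myoblast and myocyte markers summed to 4200.1 to 4510.1 and 3267 to 5091, and the 6 stromal markers to 5535 to 6176 and 3334 to 6706, with overlap in both. No marker of these lists was at 0 in either group. The 38 sarcomere genes took 5.71% to 9.28% of all counts in WT and 1.21% to 2.97% in the labelled mutant at day 3. They took 10.2% to 12.2% and 9.53% to 13.5% at day 1, and 21.1% to 21.4% and 20.2% to 22.6% at day 7. The part of these cell mixtures in the difference was not tested.

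A list of 40 further sarcomere genes, with myosin heavy chains, chaperones and other Z-disc proteins, was measured beside them. Between days 1 and 3, 3 rose and 19 fell in WT, beside 14.1% and 12.6% of all genes, and 2 rose and 34 fell in the labelled mutant, beside 22% and 22.6%. Myh3 and Myh8, the embryonic and neonatal myosins, rose most (7.60 and 5.61 in WT, 6.91 and 4.01 in the labelled mutant). Csrp3, a muscle LIM protein, and Xirp1, an actin-binding protein, had the largest falls in WT (-3.20 and -3.13), and Xirp1 and Klhl40, which stabilises thin filaments, in the labelled mutant (-5.34 and -4.18). Between days 3 and 7, 33 rose in WT and 38 in the labelled mutant, beside 20.1% and 25.8% of all genes, and none fell. The fast myosins Myh2 and Myh1 rose most (WT 3.97 and 2.99). At day 3, 30 of the 40 were lower in the labelled mutant and none was higher, beside 6.37% and 2.61% of all genes. Among the lowest was Myh6, at under 2 CPM in every group mean (-2.56).

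Uninjured quadriceps showed the adult state of a fast muscle. The 38 genes took 20.9% to 22.2% of all counts there. Per length, Acta1 was the highest with a median of 125157 TPM (range 116922 to 130852) over 6 libraries, followed by Mylpf with 33659 TPM (range 32376 to 36633), Tnnt3 with 25013 TPM (range 24408 to 26247) and Myl1 with 17398 TPM (range 15059 to 18564). These 4 ranges did not overlap one another. Next came Tnni2 with 11313 TPM (range 10475 to 12279) and Tcap with 10227 TPM (range 9903 to 12447), whose ranges overlapped. At the other end Tnnt2, Tnni3 and Mybpc3 had medians of 0.846, 0.184 and 0 TPM, and Myl7 was at 0 in all 6 libraries. Actc1 was low beside Acta1 but not absent, with 4833 TPM (range 2268 to 6542), or 3.13 ± 1.24% of the 2 actins in WT and 4.03 ± 0.955% in the labelled mutant.

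Of the forms that rose after injury in TA, Tnni1, Myl4 and Myom3 were low in quadriceps beside their TA levels of day 3 or 7. Mybph and Tnnc1 were not. Mybph had 283 TPM (range 185 to 327) and Tnnc1 108 TPM (range 90.6 to 137) in quadriceps. Their medians over the 20 TA libraries were 117 and 58.5 TPM. Tnni1 had 29.2 TPM (range 23.5 to 40.3), against 234 ± 109 TPM (SD, n = 3) in WT TA at day 3. Myl4 had 2.80 TPM (range 2.42 to 3.58), against 191 ± 80.2 TPM at day 3 and 109.6 ± 32.0 TPM at day 7 in WT TA. Myom3 had 10.7 TPM (range 9.57 to 12.2), against 54.1 ± 11.8 TPM in WT TA at day 7. The muscles differ and the cohorts were separate, so muscle and injury cannot be told apart here, and no test was made. Actn2 had 974 TPM (range 849 to 1114) against 2942 ± 709.6 TPM in WT TA at day 7.

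No sarcomere gene was called between the genotypes in quadriceps. Of 35 tested, 0 passed edgeR's test, beside 0% of all genes, 6 had an unadjusted p under 0.05, and DESeq2 called 0. The largest of the 6 was Tpm3, at 129, 122 and 92.7 CPM in WT and 92.1, 92.9 and 89.0 CPM in the labelled mutant (log2 -0.33 ± 0.10, adjusted p = 0.758).

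**Figure D4:**
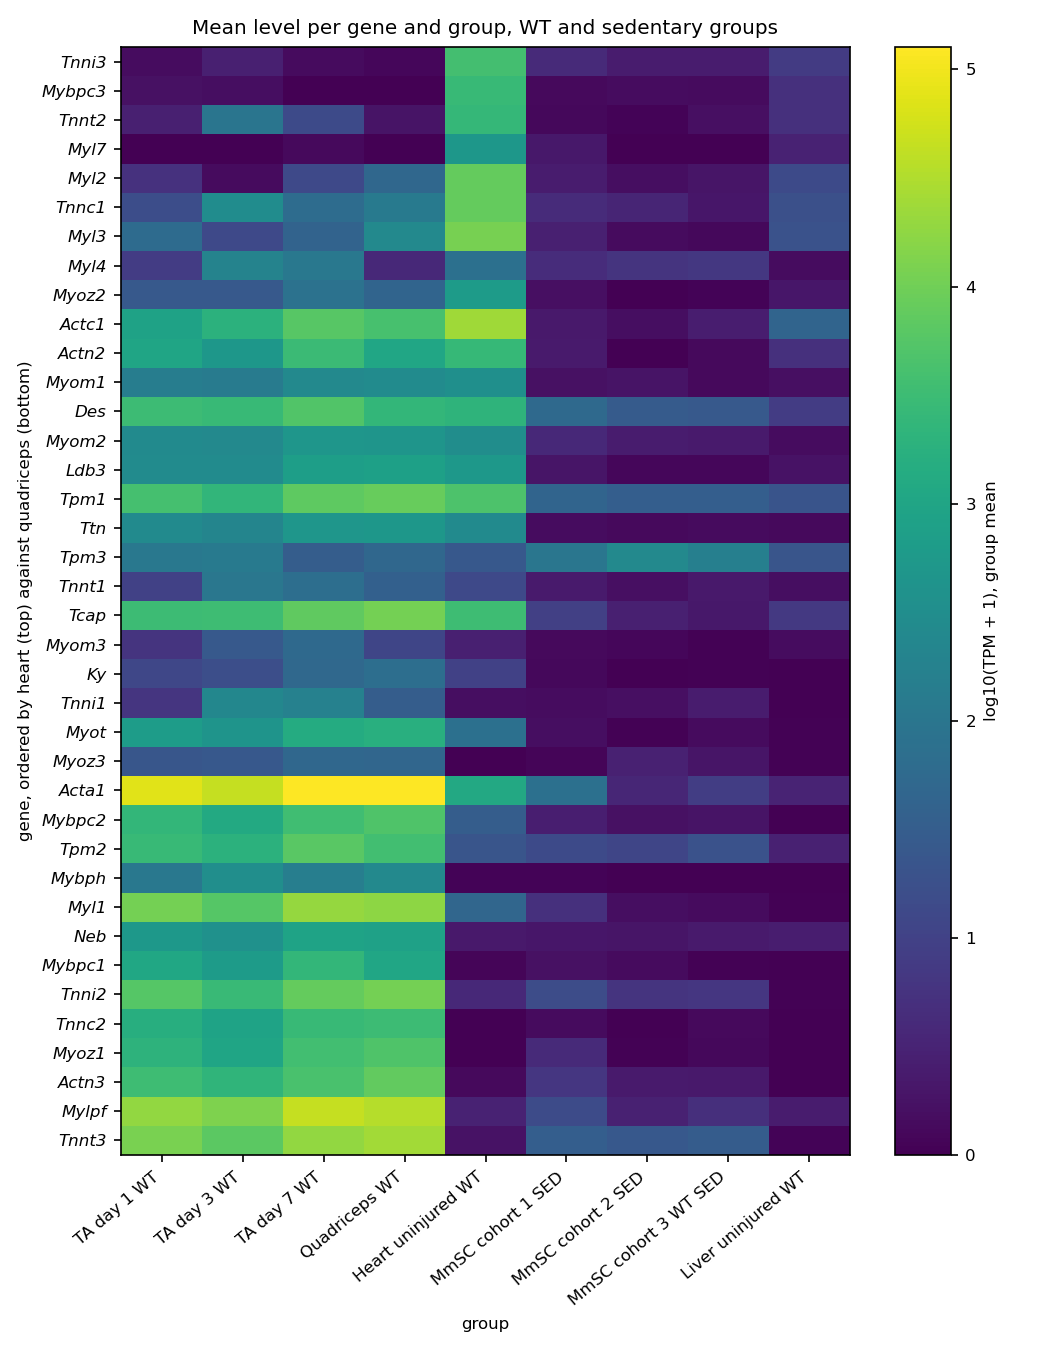
Group means of the 38 genes as log10(TPM + 1), by colour, in WT or sedentary groups of TA, quadriceps, heart, MmSCs and liver, with genes ordered from those higher in heart (top) to those higher in quadriceps (bottom). Tnni3, Mybpc3, Tnnt2 and Myl7 at the top are bright in heart and dark in quadriceps, the fast forms at the bottom are the reverse, and Tpm3 is the brightest gene of the MmSC columns.

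In heart the highest actin, troponins, light chains, myosin-binding protein, alpha-actinin and calsarcin were other genes than in quadriceps, while Tpm1 was the highest tropomyosin in both, with 5296 TPM (range 4548 to 5520.3) in heart. The 38 genes took 7.82% to 8.89% of counts in the 12 heart libraries. Per length the highest were Actc1 with 25160.2 TPM (range 18896 to 27329), Myl3 with 10947 TPM (range 10477 to 12256), Tnnc1 with 7699 TPM (range 6810.1 to 8412) and Myl2 with 7405 TPM (range 5902 to 8234). Actc1 and Myl3 did not overlap any other gene, and the ranges of Tnnc1 and Myl2 overlapped each other. In uninjured WT hearts Actc1 made up 95.2 ± 0.612% of the actins (SD, n = 3), Tnnt2 99.5 ± 0.0696% of troponin T, Tnni3 99.9 ± 0.0492% of troponin I, Myl3 98.9 ± 0.929% of the alkali light chains and Mybpc3 98.9 ± 0.151% of the myosin-binding proteins. Troponin C came from Tnnc1 alone, since Tnnc2 was at 0 in 11 of the 12 libraries. Acta1 kept 1304 TPM (range 799 to 2414). Myom1 and Myom2 were near balance, at 52.3 ± 3.50% and 47.5 ± 3.60% of the myomesins. Of the fast forms, Tnnt3 had 0.779 TPM (range 0.274 to 1.69), Mylpf 2.53 TPM (range 0.443 to 3.45) and Mybpc2 23.8 TPM (range 20.7 to 38.7).

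Cardiac troponin I and cardiac myosin-binding protein C, near 0 in skeletal muscle, were high here. Tnni3 had 3857 TPM (range 3529.8 to 4674) and Mybpc3 2581 TPM (range 2259.7 to 3066). The Tnni3 locus overlaps Dnaaf3 on the same strand. The light chains of atrial muscle varied widely between libraries. Myl4 measured 52.5, 313 and 37.1 CPM in uninjured WT hearts, 178, 166 and 196 in uninjured labelled mutant hearts, 82.8, 68.5 and 185 in WT hearts of day 3 and 148, 66.7 and 148 in labelled mutant hearts of day 3. Myl7, in the same order, measured 41.8, 269.7 and 25.2, then 126, 134 and 157, then 54.2, 59.7 and 138, then 111, 61.9 and 129 CPM. The library highest in Myl4 was also highest in Myl7, and the lowest in Myl4 was lowest in Myl7. Neither gene was called in any heart comparison. How much atrium each sample held is not recorded in the labels.

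In uninjured hearts 0 of 34 genes tested were called between the genotypes, beside 0% of all genes. Of the 34, 4 had an unadjusted p under 0.05, and DESeq2 called 0. At day 3 after CTX in skeletal muscle, 4 were higher in the labelled mutant and 1 was lower, beside 1.58% and 2.33% of all 18433 genes tested. The lower gene was Ttn, the spring that spans from Z disc to M band. Ttn measured 11419, 12577 and 10484 CPM in WT hearts of day 3 and 5332, 5582 and 4553 CPM in labelled mutant hearts of day 3, and 13349, 11188 and 11541 and 12619, 11208 and 8206 CPM in uninjured WT and labelled mutant hearts. The 3 labelled mutant libraries of day 3 were below the other 9, with a difference of -1.16 ± 0.13 from WT (adjusted p = 0.00452). Higher were Tnni3 (0.41 ± 0.077), Myoz2 (0.40 ± 0.10), Myl3 (0.30 ± 0.071) and Tpm1 (0.23 ± 0.06, adjusted p = 0.0496). Tnni3 measured 3109.7, 3021 and 2905 CPM in WT and 4318, 3792 and 3923 CPM in the labelled mutant, Myoz2 902, 872 and 952 and 1319, 1029.8 and 1237 CPM, Myl3 8538, 8171 and 8439.9 and 11219, 9289.7 and 10548 CPM, and Tpm1 13508, 12531 and 13061 and 15920.2, 14584 and 15224 CPM. In CPM the genotypes did not overlap in any of these genes, and the share of all genes without overlap was not counted in heart. In TPM, Tpm1 ran from 5316 to 5485 in WT and from 5438 to 5520 in the labelled mutant, with overlap. In the same order, Myl3 (10896 to 11246 and 11156 to 12256) and Myoz2 (687 to 757 and 738 to 861) overlapped too. Fitted on the 2 groups alone, or without any 1 of the 3 WT libraries of day 3, none of the 4 was called higher, and without labelled mutant library 3 only 1 was. Ttn was called lower each time.

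Transcript length moved with this comparison across all genes. Genes whose longest transcript is under 2 kb had a median difference of 0.11, and 42.9% of them were below 0. Those of 5 to 10 kb had a median of -0.23 with 71.7% below 0, and those over 10 kb -0.45 with 82.4% below 0. None of the 370 genes over 10 kb was called higher and 63 were called lower. Of the genes called here, Ttn has the longest transcript (106824 bases). Against uninjured labelled mutant hearts the genes over 10 kb had a median of -0.39, and between the WT hearts of day 3 and uninjured the median was -0.035. Among other long genes Syne1 was lower (-1.20, adjusted p = 0.0114) and Macf1 was lower (-0.62, adjusted p = 0.0296). The longest transcripts of the genes called higher were short: 912 bases for Tnni3, 1125 for Myl3, 2412 for Myoz2 and 2890 for Tpm1. Of all genes under 2 kb, 150 were called higher and 33 lower. The part of length in the Ttn difference, or in the higher calls, was not tested. In TA muscle at day 3, genes over 10 kb had a median of -0.16 and those under 2 kb of -0.0058, labelled mutant minus WT.

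Hearts of day 3 and uninjured hearts came from separate cohorts, so cohort and day cannot be told apart. In WT, 1 gene of 34, Myot, was lower and none was higher, beside 0.0651% and 0.038% of all genes. Myot measured 51.1, 65.5 and 71.1 CPM in uninjured and 17.6, 20.6 and 16.3 CPM in day 3 hearts of WT (-1.79 ± 0.19, adjusted p = 7.17e-04). In the labelled mutant it measured 62.0, 63.3 and 77.4 and 32.7, 20.2 and 20.2 CPM (-1.47 ± 0.19, adjusted p = 0.00214). All 6 hearts of day 3 were below all 6 uninjured ones. The labelled mutant hearts of day 3 had 6 genes higher and 2 lower than uninjured ones, beside 2.05% and 2.7% of all genes. Higher was most of all Tcap (0.94 ± 0.15), at 1210.0, 851 and 852 CPM in uninjured and 1833, 1935 and 1827 CPM in day 3 hearts. The others were Myoz2 (0.52), Tnni3 (0.45), Myom2 (0.40), Tpm1 (0.35) and Myl3 (0.34), and Ttn was lower beside Myot (-1.05 ± 0.13). The longest transcript of Tcap has 948 bases, and all genes under 2 kb had a median of 0.090 between these groups. The part of length was not tested here either. This comparison shares its day 3 libraries with the one above. Fitted on its 2 groups alone, none of the 8 was called. Without uninjured labelled mutant library 2 or 3, 3 or 2 genes were higher.

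**Figure D5:**
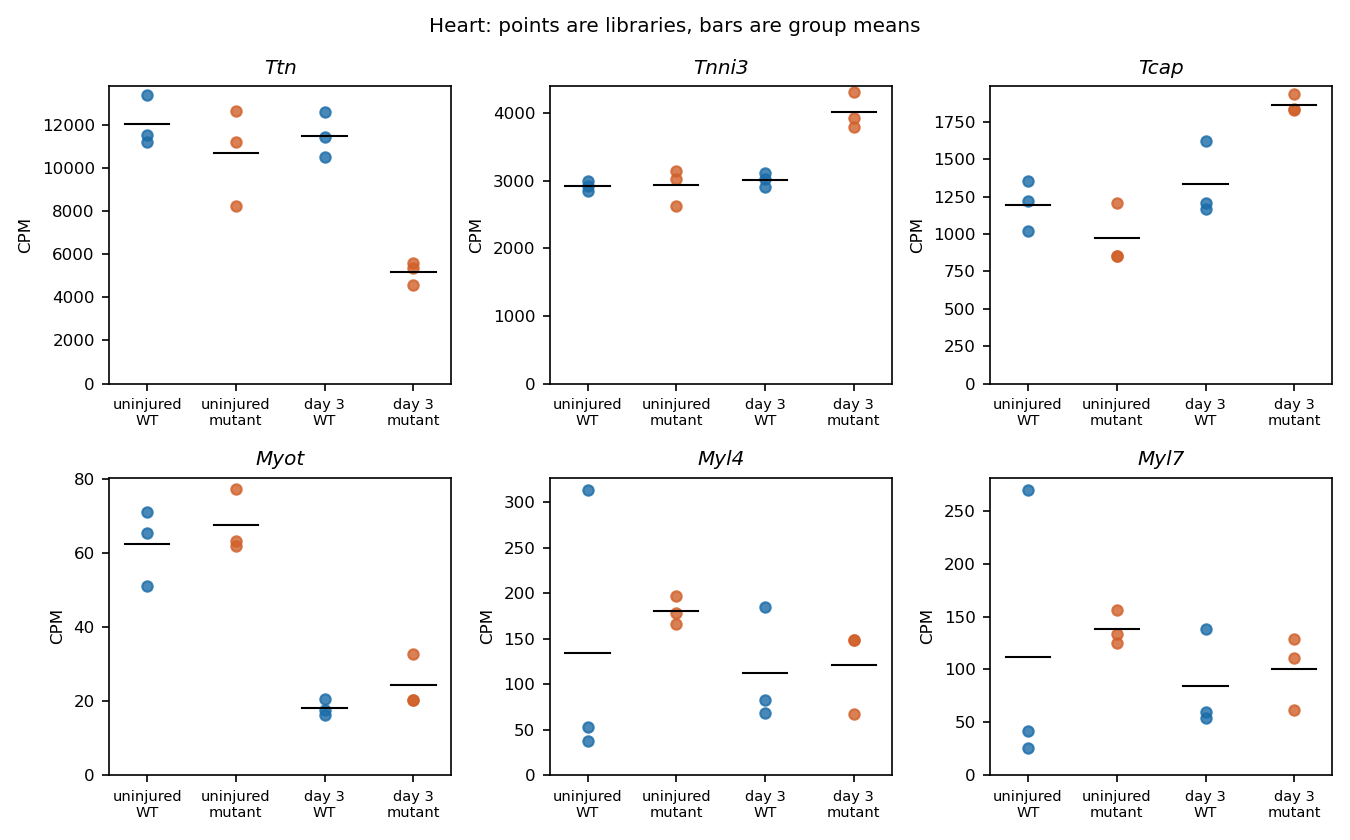
CPM of 6 genes in the 12 heart libraries, by condition and genotype, with points for libraries and bars for group means. Ttn is lowest and Tnni3 and Tcap are highest in the labelled mutant hearts of day 3, Myot is low in all 6 hearts of day 3, and Myl4 and Myl7 spread widely within groups.

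In MmSCs, with the exercise, CTX and Yoda1 sets pooled, the 38 genes took 0.0390% to 0.0685% of counts. The sets differed, so the pooled medians and ranges below do not describe each of them. Tpm1 ran from 85.6 to 106 TPM after CTX and reached at most 72.1 TPM in the others. Ttn ran from 0.686 to 1.82 TPM in the vehicle and Yoda1 groups and from 0.226 to 0.841 TPM in the rest. The highest per length was Tpm3, with 149 TPM (range 88.8 to 267) over the 44 libraries, against 40.5 TPM (range 38.7 to 54.7) in quadriceps. Tpm1 had 42.6 TPM (range 23.6 to 106), Tnnt3 20.03 TPM (range 2.13 to 45.6), Des 16.4 TPM (range 4.76 to 89.4) and Tpm2 14.3 TPM (range 2.19 to 67.5), and the other 33 had medians under 6 TPM. Tpm3 did not overlap Tnnt3 or Tpm2. Its lowest value, 88.8 TPM, was under the highest of Tpm1 (106 TPM), Acta1 (97.9 TPM) and Des (89.4 TPM). Acta1 had 5.91 TPM (range 0 to 97.9), and its libraries of the first cohort, at 61.2 to 97.9 TPM, were above the other 38. The 10 fibre genes outside the sarcomere summed to 17.7 to 96.6 TPM across the MmSC groups and to 125542 to 134624 TPM in WT quadriceps. Tnnc2 was at 0 in 34 of the 44 libraries, Mybph in 35 and Myl7 in 32. Myl4 was present in all 44, with 4.92 TPM (range 2.20 to 19.9).

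Between MmSC groups few of these genes passed a test, and between 11 and 19 were high enough to be tested. None was called after AEX in the first cohort (beside 0.736% of all genes), in the WT (0.992%) or labelled mutant (0.162%) cells of the third cohort, or between genotypes at rest (0.00675%), after AEX (0%) or after CTX (1.79%). None was called at 4 h (5.71%) or 6 h (13.2%) of Yoda1 either. In these 8 comparisons between 0 and 4 genes had an unadjusted p under 0.05. DESeq2 called Tpm2 after AEX in the first cohort and Neb after AEX in WT cells of the third, and none in the others. Des was lower after EXT (-1.34 ± 0.19, adjusted p = 0.00685), beside 0.484% of all genes, at 33.2, 32.9 and 24.1 CPM at rest and 12.4, 11.1 and 12.04 CPM after training. Tpm3 was higher at 2 h of Yoda1, beside 11.2% of all genes, at 227, 258 and 238 CPM with vehicle and 379 and 369 CPM with Yoda1 (0.64 ± 0.14, adjusted p = 0.0171). The groups did not overlap for Des or for Tpm3. The call on Tpm3 was lost without the first or the third vehicle library, and without the first Yoda1 library Myl4 was called beside it. The share of all genes called there was large. Tpm2 in the first cohort measured 10.5, 15.8 and 8.78 CPM at rest and 22.1, 56.4 and 32.4 CPM after AEX (1.65 ± 0.35, adjusted p = 0.0699), and was called without the first AEX library.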

How the data were processed

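Libraries were made from 1000 sorted MmSCs or, for whole tissue, 2 ng of RNA, per the labels' protocols. STAR 2.7.3a, featureCounts and the mm10 build are named in the submitters' processing notes. What was done about strand and about reads with several matches, and which annotation was counted, the sources used here do not say. Values deposited by the authors are whole-number counts per gene symbol, taken unchanged. The members and lists were chosen with earlier results of these data known. By their names, 78 of the 90 count columns belonged to 1 sample each, and 12, of the third MmSC cohort, could be tied to a group only. No library repeated another (chi-square per gene of at least 2.75 within groups). Libraries with equal numbers were not treated as pairs, because their deviations correlated above 0.1 in 4 of 84 pairs.

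Counts of each cohort were fitted with edgeR 4.0.16 in R 4.3.3 (TMM scaling, genes kept by filterByExpr with min.count 10, robust quasi-likelihood test, Benjamini-Hochberg adjustment over all genes tested). TA groups shared 1 fit, as did heart groups, and comparisons with libraries in common depend on each other. The interaction was a joint test over the days, and its log2 values are the genotype difference at day 3 minus that at day 1. TPM and family shares used union exon lengths of the reference annotation, and ratios had 0.5 added to each count. Named with a value in every library were paralogues whose partners moved differently over TA days, Myl4, Myl7, Tnnt2, Tnni3, Mybpc3, Ttn, Neb, Mybph, Myot, Ky and Des, and members called between genotypes or in MmSCs, with the others by range and count. Of the sarcomere-associated genes, the 2 called with the largest log2 change in each direction and TA day contrast were named, except 1 that is not reported here. The 4 promoters printed were chosen after results were seen. Alternatives were RLE scaling, library totals, DESeq2 1.42.0, no filter, only the 2 groups compared, the replicate number as a block and each library left out. The scripts were tested on simulated data.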

Additional observations from a re-analysis of the deposited data

Results flagged for a closer look

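Among 74 values of a gene in a TA group of 4 libraries, 2 had a library far from the other 3. Tpm3 measured 266 CPM in WT library 2 of day 1 and 207 to 215 CPM in the other 3. Myl2 measured 5.74 CPM in WT library 4 of day 1 and 1.47 to 2.13 CPM in the others. Chance flags about 1 group in 20, so 2 of 74 is no more than that.

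The change over days in TA muscle differed between the genotypes for 21 genes in the joint test of genotype with day (edgeR, adjusted p from 7.14e-04 to 0.0377). All 21 had a negative difference, the gap between labelled mutant and WT at day 3 less that at day 1, on the log2 scale. For genes of the Z disc and M band it was Ky (-2.92), Myoz3 (-2.84), Ldb3 (-2.47), Myoz1 (-2.44), Myom1 (-2.19), Actn3 (-2.03), Actn2 (-1.93), Myom2 (-1.78) and Des (-1.63). For the thin filament it was Tnni2 (-2.51), Tpm1 (-2.19), Tnnt3 (-2.14), Tpm2 (-2.09), Neb (-1.91) and Acta1 (-1.81). For the thick filament and its scaffold it was Mybpc2 (-2.63), Ttn (-2.01), Mybpc1 (-1.93), Mylpf (-1.87), Myl1 (-1.81) and Mybph (-1.56).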

How the results depend on the processing

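Of 184 called changes of the sarcomere genes, 137 passed the threshold in the same direction under every alternative run, and none was reversed. DESeq2 lost 0 of the 184, RLE scaling 1, library totals 6, the replicate block 5 and no filter 21, while 25 of 161 were lost with only the 2 groups compared, and 114 of 1451 values with a library left out. With only the 2 groups compared, 0 genes were higher and 16 lower between genotypes in TA at day 3, 0 were higher between genotypes in heart at day 3, and 0 were higher and 0 lower in labelled mutant hearts of day 3 against uninjured. With library totals, 5 fell between days 3 and 7 in WT TA, 2 were higher between genotypes in heart at day 3 and 1 was called at 6 h of Yoda1 (Neb). Without the filter, 4 were lower in labelled mutant hearts of day 3 against uninjured, 1 was called in MmSCs after AEX in the first cohort (Tpm2) and 1 between genotypes after CTX (Des), and 0 at 2 h of Yoda1. DESeq2 called 1 in the first cohort after AEX and 1 in WT cells of the third (Neb). The cause of these differences was not tested.

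With the replicate number as a block, 7 rose and 15 fell by day 3 in WT and 6 and 26 in the labelled mutant, 28 rose and 3 fell by day 7 in WT and 32 and 2 in the labelled mutant, and 1 was higher and 30 lower between genotypes at day 3. The interaction then gave 22, heart between genotypes at day 3 gave 3 higher and 1 lower, the first MmSC cohort 1 and Yoda1 at 2 h 0. The other counts under the block equalled those of the fit without it. The numbers are not known to pair the samples, and libraries of the third MmSC cohort carry none.

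Leaving out 1 library gave 7 to 8 genes higher and 7 to 17 lower by day 3 in WT TA, and 5 to 7 and 25 to 26 in the labelled mutant. By day 7 it gave 28 higher and 2 to 3 lower in WT, and 32 and 2 to 3 in the labelled mutant. Between genotypes at day 3 it gave 0 to 1 higher and 21 to 29 lower, and 13 to 25 for the interaction. In heart at day 3 it gave 0 to 5 higher and 1 lower between genotypes, and 2 to 6 higher and 2 lower against uninjured hearts in the labelled mutant. In MmSCs it gave 0 to 1 for AEX in the first cohort, CTX and Yoda1 at 6 h, and 0 to 2 for Yoda1 at 2 h. Of the 12 ratios, 10 to 11 changed by day 3, 7 by day 7 and 0 between genotypes. Family shares moved beyond the spread between libraries in 27 of 60 cases with the longest transcript as length and in 43 with raw counts. In MmSCs all members but Tpm3, Tpm1, Tnnt3, Des and Tpm2 had a median of at most 5.91 TPM, and 11 to 19 of the 38 passed the filter.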

Other observations

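Liver held traces of the heart forms at similar shares of their heart level. Of the 12 sarcomere genes above 1000 TPM in heart, 10 measured between 0.164% and 0.200% of their heart level in liver. Actc1, the most abundant of them, measured 42.8 TPM in liver against 24781 TPM in heart, and Acta1 2.34 against 1401 TPM. Tpm1 stood at 0.397% and Des at 0.374%. Across the 8 liver libraries the summed TPM of the 12 genes was 0.124% to 0.249% of their sum in heart. In the other direction, the liver genes Alb, Apoa1, Ttr, Serpina1a, Apoc3 and Fgb measured between 0.123% and 0.131% of their liver level in heart, with Alb at 90.9 against 73782 TPM. Apoc3 and Fgb were added to that list after values were seen. The 8 fast skeletal genes above 1000 TPM in quadriceps and under 50 TPM in heart ran in liver from 0 TPM for Tnnc2 to 1.58 TPM for Mylpf and 1.74 TPM for Tpm2, against 2.40 TPM for Mylpf and 21.02 TPM for Tpm2 in heart. These are values without a test.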
